A study of Mus musculus with 2 samples.

Results

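The genes described here are the 34 genes of cholesterol and fatty acid synthesis that were listed by symbol: 18 enzymes that lead from acetyl-CoA to cholesterol, 5 regulators of the sterol response, and 11 enzymes that make, lengthen or desaturate fatty acids. They were taken by gene identifier from the 43346 genes in the tables of 2 forebrain libraries, and all 34 were matched. Each library came from the whole forebrain of a newborn mouse, pup 1 or pup 3, of strain B6NCrl at postnatal day 0, with no treatment and no genotype beyond the strain in the labels. Each held RNA longer than 200 nt, amplified by Smart-seq from 13 pg, about the RNA content of 1 cell. The title calls the assay single cell RNA-seq, but the input was a dilution of tissue RNA, so each value is a sample of the mixed forebrain and not of 1 cell. The labels give both pups the same donor identifier and state that sex was not collected.

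With 1 library per pup, a difference between the pups has no replicate check, and the pup cannot be told apart from the library. No p-value is given for that reason, and the comparisons below describe these 2 libraries. In bulk RNA, fewer cells of a type and less RNA per cell also cannot be told apart. Levels are in TPM, the deposited abundance unit that is scaled for transcript length and library size, so that genes can be compared with each other. A gene is called found in a pup at a TPM of 1 or more. A mean is given with the SD of the 2 libraries (n = 2).

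The brain makes its own cholesterol, because lipoprotein cholesterol does not cross the blood-brain barrier in useful amounts, and growing neurons and glia need sterols and unsaturated fatty acids for new membrane. Sterol synthesis starts from cytosolic acetyl-CoA, runs through mevalonate and the isoprenoid pyrophosphates to squalene, closes the ring to lanosterol, and ends with a chain of demethylations, reductions and isomerisations. Both this branch and the fatty acid branch are controlled by the SREBP transcription factors, which are held in the endoplasmic reticulum by Scap and the Insig proteins when sterol is plentiful. Once released and cut, they bind sterol regulatory elements (SRE) in promoters, usually beside sites for NF-Y (the CCAAT box) and Sp1 (the GC box).

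The stretches before the start sites of 4 members are shown because these genes had the highest mean level in their branch among the members with a RefSeq promoter window: Hmgcs1 for the mevalonate steps and for the members as a whole, Cyp51 for the late sterol steps, Insig1 for the regulators and Fads2 for the fatty acid enzymes. Each is the 250 bases before the RefSeq transcript start on GRCm38.p6, written 5′ to 3′ on the strand of the gene. Capitals mark matches, on either strand, to the SRE (TCACNCCAC), the CCAAT box (CCAAT), the GC box (GGGCGG) and the E-box (CACGTG). Hmgcs1 lies on the plus strand at chr13:119690101-119690350, Cyp51 on the minus strand at chr5:4104698-4104947, Insig1 on the plus strand at chr5:28071162-28071411, and Fads2 on the minus strand at chr19:10101504-10101753.
Hmgcs1: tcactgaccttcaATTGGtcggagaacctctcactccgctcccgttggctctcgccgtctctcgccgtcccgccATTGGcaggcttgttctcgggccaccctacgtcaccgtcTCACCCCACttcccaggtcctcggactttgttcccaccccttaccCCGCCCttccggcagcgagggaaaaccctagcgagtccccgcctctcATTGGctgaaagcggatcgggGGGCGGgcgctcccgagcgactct
Cyp51: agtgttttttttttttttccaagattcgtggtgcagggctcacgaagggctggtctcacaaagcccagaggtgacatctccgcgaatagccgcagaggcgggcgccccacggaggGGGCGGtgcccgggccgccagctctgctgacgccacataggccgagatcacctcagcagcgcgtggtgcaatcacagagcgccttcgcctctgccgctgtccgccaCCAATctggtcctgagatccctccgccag
Insig1: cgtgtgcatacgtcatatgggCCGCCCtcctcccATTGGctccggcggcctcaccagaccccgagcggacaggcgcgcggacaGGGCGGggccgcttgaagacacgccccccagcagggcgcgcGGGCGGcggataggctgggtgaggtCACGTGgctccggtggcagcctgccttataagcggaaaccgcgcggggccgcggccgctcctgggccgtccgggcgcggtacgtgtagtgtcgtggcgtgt
Fads2: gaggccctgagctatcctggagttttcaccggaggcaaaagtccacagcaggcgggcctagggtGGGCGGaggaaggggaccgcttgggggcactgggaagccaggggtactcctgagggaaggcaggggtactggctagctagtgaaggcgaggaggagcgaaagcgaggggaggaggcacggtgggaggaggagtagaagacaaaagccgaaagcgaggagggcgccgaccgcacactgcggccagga

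The Hmgcs1 window held the only match to the SRE letters among the 28 members with a window. That match lay on the gene strand at bases -137 to -129 from the start. The window also held CCAAT boxes on the other strand at -237 to -233, -176 to -172 and -45 to -41 and GC boxes at -92 to -87 and -24 to -19. Insig1, in contrast, carried 3 GC boxes, 1 CCAAT box and the E-box at -101 to -96. Of the 34 members, 28 had at least 1 window in the RefSeq table, with 38 windows in all. Fdps, Fdft1, Sqle, Scd1, Scd2 and Fads1 had none and were not searched. A CCAAT box was present in 22 of these 38 windows (57.9%), against 33.8% of all 32851 windows in the table and 35.4% of the 21263 windows of coding genes. A GC box was present in 27 member windows (71.1%), against 32.7% of all windows and 42.6% of those of coding genes. The E-box was present in 6 member windows (15.8%), against 6.02% and 6.63%. The exact SRE letters were present in 1.05% of all windows and 1.01% of coding windows. A match here is a description of letters in a window, and variants of the SRE letters were not searched. Matches overlapped in the windows of Elovl1 (a GC box with a CCAAT box) and Fasn (2 CCAAT boxes on opposite strands) and in no other member window.

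**Figure D1:**
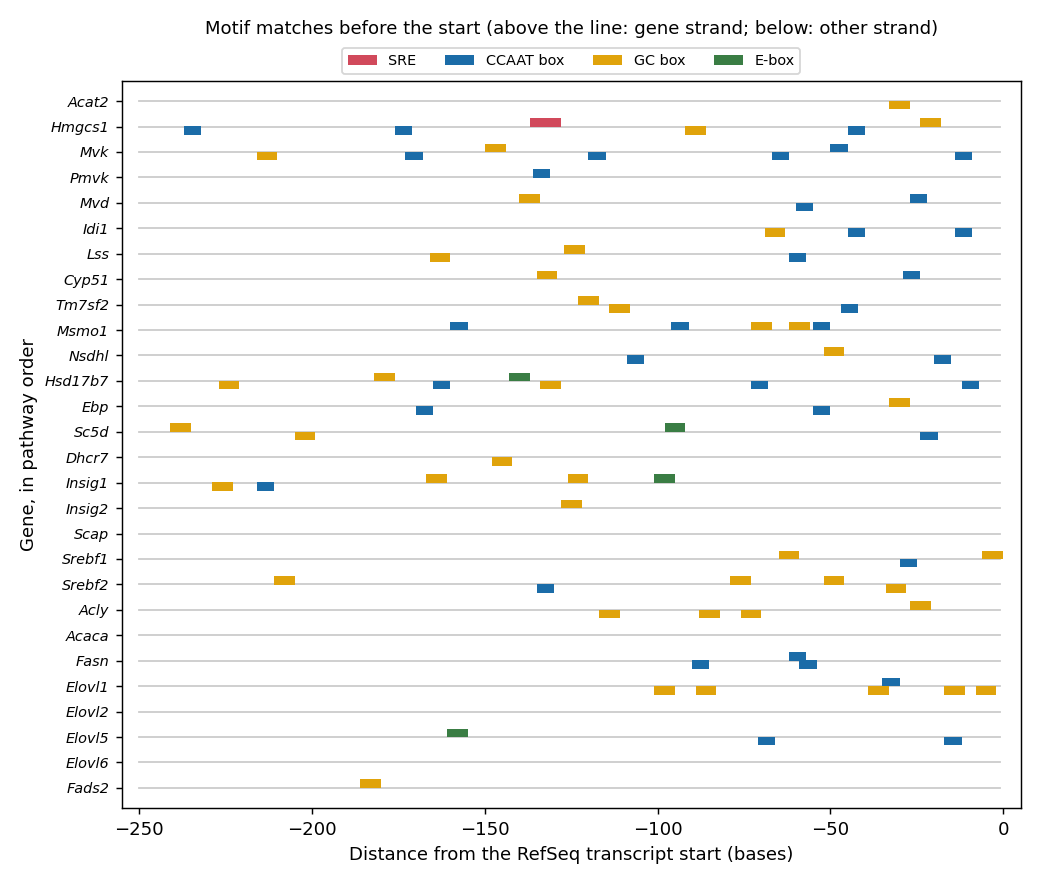
Matches to 4 motifs (colours) in the 250 bases before the start of each of the 28 members with a RefSeq window. The horizontal axis is the distance from the transcript start in bases, rows are genes in pathway order, only the first window of each gene is drawn, and marks above a line lie on the gene strand. The single SRE match is in Hmgcs1, while CCAAT and GC boxes appear in most rows.

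The members were among the more abundant genes of the newborn forebrain, and most of them were found in both pups. In both libraries 25 of 34 members (73.5%) were found, against 24.7% of the 21461 nuclear protein-coding genes. Another 6 (17.6%) were found in pup 1 alone, against 17.4% of those genes, and 1, Scap, in pup 3 alone, against 4.22%. Ebp and Elovl1 were found in neither. The 21461 genes include 11508 that stayed below 1 TPM in each library. With such genes left out, pup 1 alone held 37.6% of the remaining 9953, and both libraries shared 53.3%. On that base 32 members remain, with 6 in pup 1 alone and 25 shared. The members thus had a lower share in pup 1 alone than this background and a higher shared part, but the background was not matched for level. Among genes at a mean of 50 TPM or more, 28.6% of the members were 2-fold or more higher in pup 1, against 19.7%. In pup 3 it was 4.76%, against 23.4%. At 10 TPM or more in both pups stood 24 members, and 16 were at 50 TPM or more in both. The median member had a level of 73.3 TPM in pup 1 and 49.2 TPM in pup 3, and 59.7 TPM as the mean of both, against 21.4 TPM for the 9953 protein-coding genes found in either pup. Summed, the members held 3323 TPM in pup 1 and 2583 TPM in pup 3, which is 0.332% and 0.258% of all TPM.

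**Figure D2:**
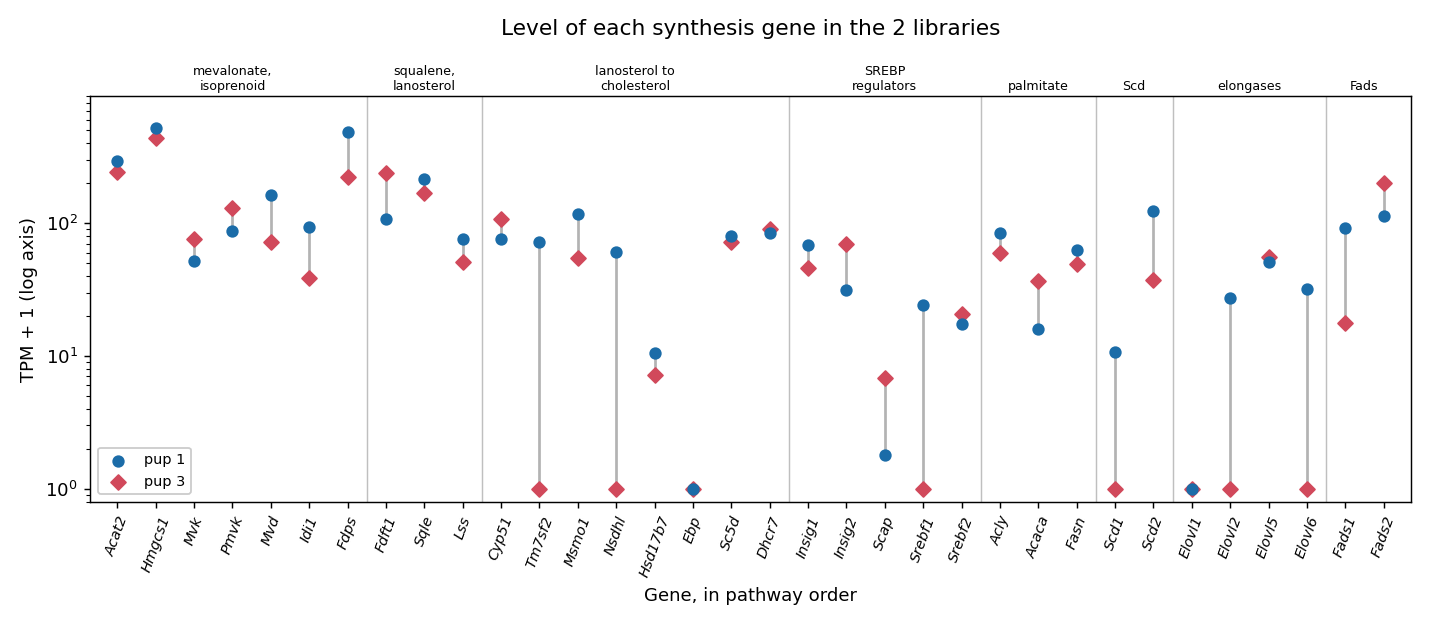
Level of each of the 34 genes in pup 1 (circles) and pup 3 (diamonds), as TPM + 1 on a log axis, in pathway order with the steps named above. Each point is 1 library; a point at the bottom is a gene with 0 reads. The mevalonate and squalene steps are filled in both pups, and 6 genes drop to 0 reads in pup 3.

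All 7 enzymes of the mevalonate and isoprenoid steps were found in both pups. Hmgcs1, the cytosolic synthase that makes HMG-CoA, lay at chr13:119690379-119708260 and had the highest level of any member: 520 TPM in pup 1 and 434 TPM in pup 3 (477 ± 61.5 TPM, mean ± SD, n = 2). Only 1.28% of protein-coding genes had a higher mean. As a share of reads it was equal in the pups, at 1054 CPM in each, where CPM is the read count scaled to the library total without regard to length. Fdps, the farnesyl pyrophosphate synthase, followed with 485 TPM in pup 1 and 223 TPM in pup 3 (354 ± 185 TPM), a level 2.17-fold higher in pup 1. Acat2, which joins acetyl-CoA units ahead of Hmgcs1, was at 293 TPM and 241 TPM. These 3 were the most abundant members, and the SD of Fdps is wide enough to reach the levels of both others.

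The kinases of the chain were lower than these 3 and were higher in pup 3. Mvk, the mevalonate kinase, had 51.0 TPM in pup 1 and 75.3 TPM in pup 3. Pmvk, which adds the next phosphate, had 86.7 TPM and 129 TPM. Neither difference reached 2-fold. Mvd, the decarboxylase that yields isopentenyl pyrophosphate, had 161 TPM in pup 1 and 71.1 TPM in pup 3, 2.27-fold higher in pup 1. Idi1, the isomerase of that product, had 92.6 TPM and 37.9 TPM, 2.44-fold higher in pup 1. So of these 7 enzymes, Mvd, Idi1 and Fdps were 2-fold or more higher in pup 1 and none in pup 3. Of the 9953 protein-coding genes found in either pup, 49.1% were 2-fold or more higher in pup 1 and 22.9% in pup 3. Among the 2797 at a mean level of 50 TPM or more, where all 7 lie, the shares were 19.7% and 23.4%.

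The 3 enzymes from farnesyl pyrophosphate to lanosterol were also found in both pups. Sqle, the squalene epoxidase and a slow step of the pathway, had 214 TPM in pup 1 and 168 TPM in pup 3 (191 ± 32.0 TPM, n = 2). Fdft1, which makes squalene, had 107 TPM in pup 1 and 239 TPM in pup 3, 2.24-fold higher in pup 3, and was the only cholesterol enzyme with a 2-fold higher level there. Fdft1 and Ctsb, a cathepsin gene on the opposite strand, share 774 exonic bases, and whether counting used the strand is not given in the sources used here. Ctsb differed in the opposite direction, with 233 TPM in pup 1 and 82.8 TPM in pup 3. Lss, which closes the ring to lanosterol, was lower than the others in both pups, at 75.5 TPM and 50.03 TPM.

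Of the 8 enzymes after lanosterol, 5 appeared in both libraries, 2 were seen only in that of pup 1, and 1 had 0 reads in either. Over the 9953 coding genes found in either pup, 53.3% were in both and 37.6% in pup 1 alone. Cyp51, the lanosterol demethylase, had 74.99 TPM in pup 1 and 106 TPM in pup 3. Dhcr7, the reductase whose loss causes Smith-Lemli-Opitz syndrome, had 83.3 TPM and 88.8 TPM (86.0 ± 3.92 TPM, n = 2). Sc5d, the desaturase just before it, had 79.1 TPM and 71.7 TPM (75.4 ± 5.28 TPM). Dhcr7 and Sc5d thus kept nearly the same level in the 2 libraries. Msmo1, the methyl oxidase, had 117 TPM in pup 1 and 53.5 TPM in pup 3, 2.19-fold higher in pup 1.

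Nsdhl, the dehydrogenase that works with Msmo1 in removing the methyl groups at position C4, had 60.1 TPM from 3298 reads in pup 1 and 0 reads in pup 3. Tm7sf2, a sterol reductase, had 71.6 TPM from 1382 reads in pup 1 and 0 reads in pup 3. A count of 0 allows up to 3 reads, or 0.1004 CPM in pup 3, so against that floor Nsdhl was at least 799.6-fold and Tm7sf2 at least 335-fold higher in pup 1 on the CPM scale, by counting error only. The upper credibility bounds that the authors deposited for pup 3 were 0.167 TPM for Nsdhl and 1.37 TPM for Tm7sf2. Those bounds are wider than the counting floor: the lower bound in pup 1 over the upper bound in pup 3 was 340 for Nsdhl and 48.2 for Tm7sf2. Tm7sf2 shares 532 exonic bases with Vps51 on the same strand, and Vps51 was present in both pups, at 50.7 TPM and 35.0 TPM. Hsd17b7, the sterol ketone reductase, was low in both pups, at 9.55 TPM and 6.19 TPM. Ebp, the sterol isomerase, had 0 reads in both, with deposited upper bounds of 0.452 TPM in pup 1 and 0.506 TPM in pup 3.

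By sum, the 18 cholesterol enzymes held 2582 TPM in pup 1 and 1995 TPM in pup 3. Counted as reads they were closer, at 3617 CPM and 3707 CPM.

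The 5 regulators had a median level of 18.0 TPM, against 85.6 TPM for the 18 cholesterol enzymes. Insig1, a protein that helps to hold the SREBPs back, had 67.9 TPM in pup 1 and 45.3 TPM in pup 3. Its paralog Insig2 went the other way, with 30.2 TPM and 68.5 TPM, 2.27-fold higher in pup 3. Their means, 56.6 ± 15.9 TPM and 49.4 ± 27.1 TPM (SD, n = 2), overlapped. Srebf2, the SREBP chiefly tied to cholesterol genes, had 16.4 TPM and 19.6 TPM (18.0 ± 2.26 TPM) and was the steadiest of the regulators. Srebf1, the SREBP chiefly tied to fatty acid genes, had 23.0 TPM from 1943 reads in pup 1 and 0 reads in pup 3. Against the floor of 3 reads it was at least 471-fold higher in pup 1 on the CPM scale, by counting error only. The deposited bounds for Srebf1 allow a ratio as low as 17.9. In pup 3 its upper bound was 1.30 TPM, so these tables do not place it below the level called found there. Scap, the sterol sensor that carries the SREBPs, had 0.79 TPM from 87 reads in pup 1 and 5.84 TPM from 565 reads in pup 3, 7.39-fold higher in pup 3. The Scap exons share 985 bases with 5830462I19Rik on the opposite strand. Together the 5 regulators held 138 TPM and 139 TPM.

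The enzymes that build palmitate were found in both pups. Acly, which makes cytosolic acetyl-CoA from citrate, had 83.6 TPM in pup 1 and 58.7 TPM in pup 3. Fasn, the fatty acid synthase, had 62.3 TPM and 48.3 TPM (55.3 ± 9.89 TPM, n = 2). Acaca, the acetyl-CoA carboxylase and the committed step, was the lowest of the 3 in each pup, with 14.8 TPM in pup 1 and 35.7 TPM in pup 3, 2.41-fold higher in pup 3.

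Desaturases were among the members with the widest gaps between the pups. Scd2, the stearoyl-CoA desaturase of developing brain, had 123 TPM in pup 1 and 36.6 TPM in pup 3, 3.36-fold higher in pup 1. Scd1, its paralog of liver and fat, had 9.70 TPM from 1220 reads in pup 1 and 0 reads in pup 3. Against the floor Scd1 was at least 296-fold higher in pup 1 on the CPM scale, by counting error only. By the deposited bounds in TPM the ratio was 335. Fads1, the desaturase that yields arachidonic and eicosapentaenoic acid, had 90.3 TPM and 16.7 TPM, 5.41-fold higher in pup 1, the widest gap among members with more than 10 TPM in both pups. Fads2, which acts ahead of Fads1 on the same chromosome and is transcribed from the other strand, had 112 TPM in pup 1 and 198 TPM in pup 3 (155 ± 61.3 TPM). Thus the neighbours Fads1, at chr19:10182888-10196877, and Fads2, at chr19:10062765-10101746, differed in opposite directions.

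Among the elongases, Elovl5, which extends polyunsaturated chains, was the only member found in both pups, with 50.3 TPM and 54.6 TPM (52.5 ± 3.06 TPM, n = 2). Elovl6, which takes palmitate to stearate, had 30.9 TPM from 4797 reads in pup 1 and 0 reads in pup 3. Elovl2, which makes the long precursors of docosahexaenoic acid, had 26.5 TPM from 2546 reads in pup 1 and 0 reads in pup 3. On the CPM scale these were at least 1163-fold and at least 617-fold higher in pup 1 against the floor, by counting error only. By the deposited bounds in TPM the ratios were 1375 for Elovl6 and 455 for Elovl2. Elovl1, the elongase of saturated very long chains, had 0 reads in both pups. The 11 fatty acid enzymes held 603 TPM in pup 1 and 449 TPM in pup 3.

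Read across the set, pup 1 had the higher level for 21 of the 32 members found in either pup (65.6%) and pup 3 for 11, and pup 1 had the higher level for 62.2% of the 9953 coding genes found in either pup. Of the 32 members found in either pup, 12 (37.5%) were 2-fold or more higher in pup 1 on the log2(TPM + 1) scale, against 49.1% of the 9953 protein-coding genes found in either pup. Only Fdft1, Insig2, Scap and Acaca (12.5%) were 2-fold or more higher in pup 3, against 22.9%. The other 16 were within 2-fold. With pup 3 over pup 1, the log2 ratio had a median of -0.43 over these 32 members and -0.92 over the 9953 genes, medians that include genes found in 1 pup only. Over genes found in both pups the order was the reverse, with a median of -0.28 for the 25 members and 0.13 for the 5305 coding genes. The log2 scale with a pseudocount of 1 understates the difference of low genes. Among the 21 members at a mean level of 50 TPM or more, 6 (28.6%) were 2-fold or more higher in pup 1, against 19.7% of the 2797 protein-coding genes at that level, and 1 (4.76%) in pup 3, against 23.4%. Scaling by deposited FPKM moved the median ratio of all genes by 0.26 and gave 9 members higher in pup 1 and 5 in pup 3, where TPM gave 12 and 4; Fdps, Msmo1 and Mvd were then below 2-fold and Fads2 above it.

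**Figure D3:**
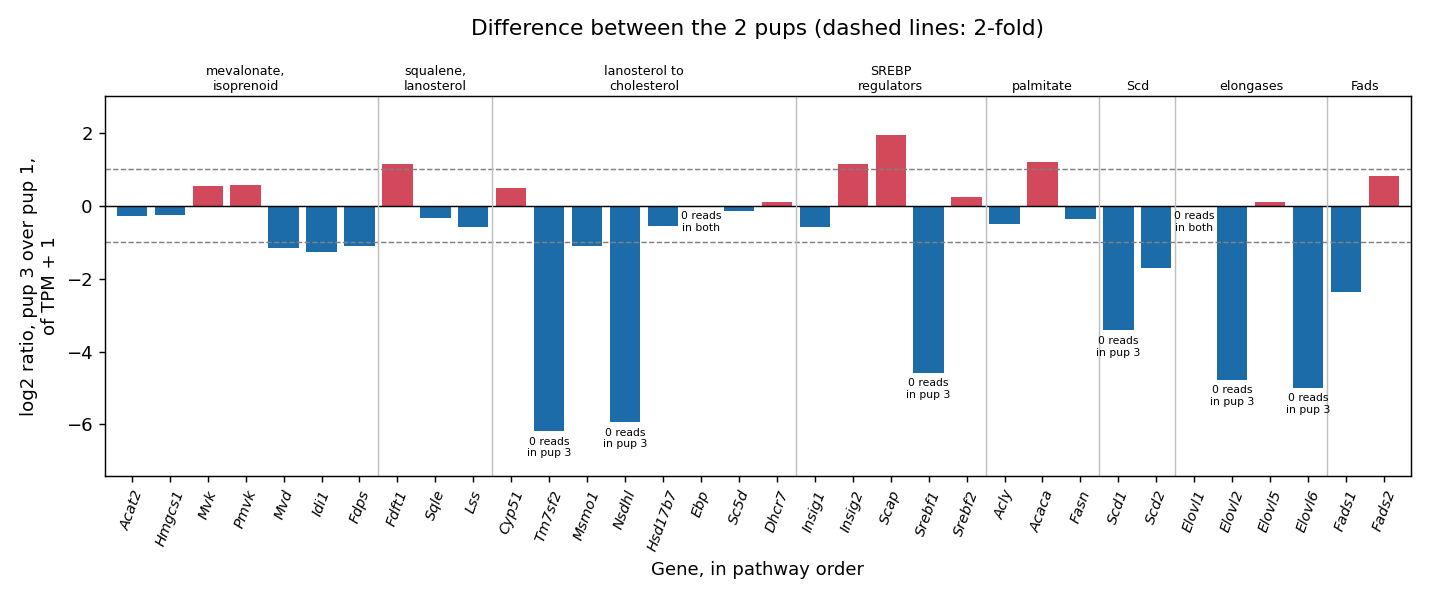
Difference between the pups for each of the 34 genes, as the log2 ratio of TPM + 1 in pup 3 over pup 1. Bars below 0 (blue) are higher in pup 1, bars above 0 (red) higher in pup 3, dashed lines mark 2-fold, and genes with 0 reads are labelled; 12 bars pass the lower line and 4 the upper one.

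The 6 members with reads in pup 1 and 0 reads in pup 3 were Tm7sf2, Nsdhl, Srebf1, Scd1, Elovl2 and Elovl6, and no member showed the reverse. Their levels in pup 1 ran from 9.70 to 71.6 TPM. Of the 13 members inside that range in pup 1, these 6 (46.2%) had 0 reads in pup 3. Among the 5015 protein-coding genes in the same range, 36.0% had 0 reads in pup 3. The range was set by the 6 genes themselves, which lifts their share. In pup 3, 29881397 reads were assigned against 41082811 in pup 1, a ratio of 1.37, while spike-in RNA took 4.09% of reads in pup 3 and 2.08% in pup 1. Thinning pup 1 to the total of pup 3 left the number of members found in each library, and in neither, as it was. Pup 3 itself was not thinned, so this step could not change its counts of 0 and was no test of their source.

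Among genes found in both pups, the levels of the members followed each other about as closely as those of coding genes at large. Over the 25 members found in both pups, Pearson's r of log2(TPM + 1) was 0.768 and Spearman's rho 0.596. Over the 5305 protein-coding genes found in both pups, r was 0.665 and rho 0.645. Both coefficients run across genes within a pair of libraries, and genes do not replicate one another.

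**Figure D4:**
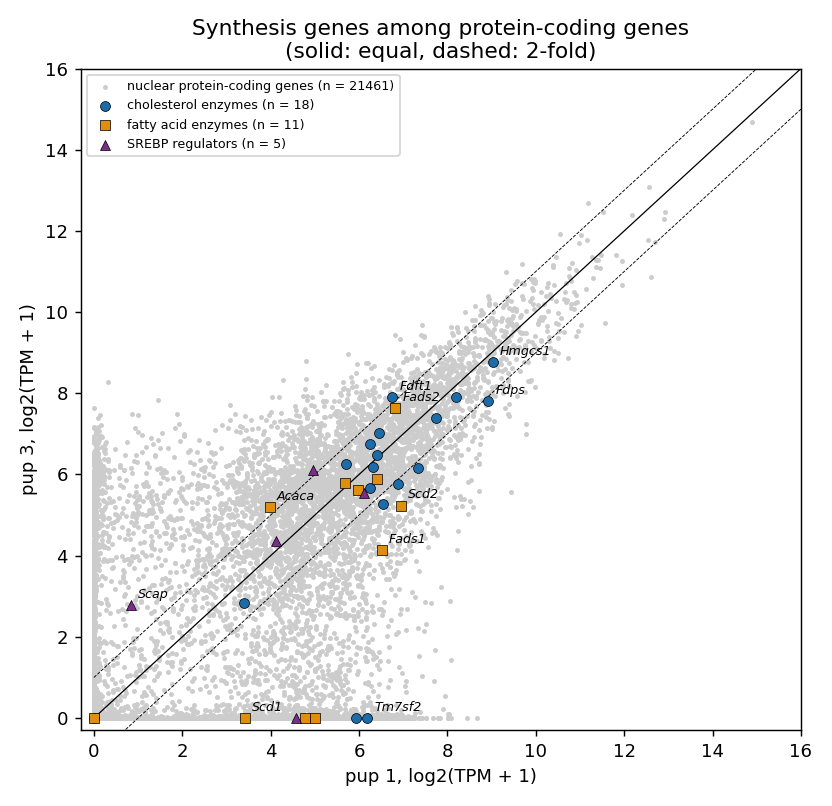
Level in pup 3 against level in pup 1, both as log2(TPM + 1), for 21461 nuclear protein-coding genes (grey) with the 18 cholesterol enzymes, 11 fatty acid enzymes and 5 regulators on top. The solid line marks equal levels and the dashed lines 2-fold; Hmgcs1 lies at the upper end near the solid line, Fdps lies outside the lower dashed line, and the members along the bottom edge have 0 reads in pup 3.

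Transcripts add a second layer to these levels. Of the 25 members at a mean of 20 TPM or more, 23 had TPM above 0 in both pups, and 22 of those had the same leading transcript in each, by TPM as well as by reads. Acly was the exception. In pup 1 its TPM was carried by Acly-207 (4162 nt, 53.0% of the gene) and Acly-203 (4426 nt, 36.8%), both listed at 0 in pup 3. In pup 3 the short coding transcript Acly-202 (1741 nt) held 99.1%, against 1.20% in pup 1. The effective length that enters TPM was 4024 bases for Acly in pup 1 and 1665 bases in pup 3. By read share Acly was 2.87-fold higher in pup 1 (217 CPM against 75.7 CPM), and by TPM 1.43-fold.

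Fasn changed direction with the scale. Its full coding transcript Fasn-201 (9587 nt) had a TPM share of 38.8% in pup 1 and 100% in pup 3, and the retained-intron transcripts Fasn-202 and Fasn-203 held 30.1% and 31.1% in pup 1 and 0 in pup 3. By reads, Fasn-201 held 88.7% in pup 1. Fasn was 1.29-fold higher in pup 1 by TPM but 2.13-fold higher in pup 3 by CPM, and Fasn-201 itself had 24.2 TPM in pup 1 and 48.3 TPM in pup 3. Hsd17b7, named here after its values were seen, did the same: it was 1.54-fold higher in pup 1 by TPM and 3.62-fold higher in pup 3 by CPM. Its reads were assigned to Hsd17b7-202 and Hsd17b7-204 in pup 1 and on Hsd17b7-201 alone in pup 3.

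Some members with a shared leading transcript still differed in the minor ones. Acaca-201 held 79.7% of Acaca TPM in pup 1 and 57.0% in pup 3, where the short Acaca-204 (889 nt) held 42.8% of TPM but 6.22% of reads. Lss-201 held 45.9% in pup 1 and 71.3% in pup 3, and the noncoding Lss-202 (352 nt) held 37.3% in pup 1 and 0 in pup 3. Mvk-204, a retained-intron transcript, held 30.2% in pup 1 and 0 in pup 3, beside Mvk-201 at 60.8% and 77.1%. Msmo1-201 was steady at 60.9% and 62.8%. Insig2-208 held 69.4% and 63.8% of Insig2. Dhcr7-202 held 69.9% and 99.5%. In Tm7sf2, seen in pup 1 alone, the retained-intron transcripts Tm7sf2-213 and Tm7sf2-211 held 46.1% and 18.1% of TPM, and the coding Tm7sf2-210 and Tm7sf2-201 held 23.6% and 11.9%.

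**Figure D5:**
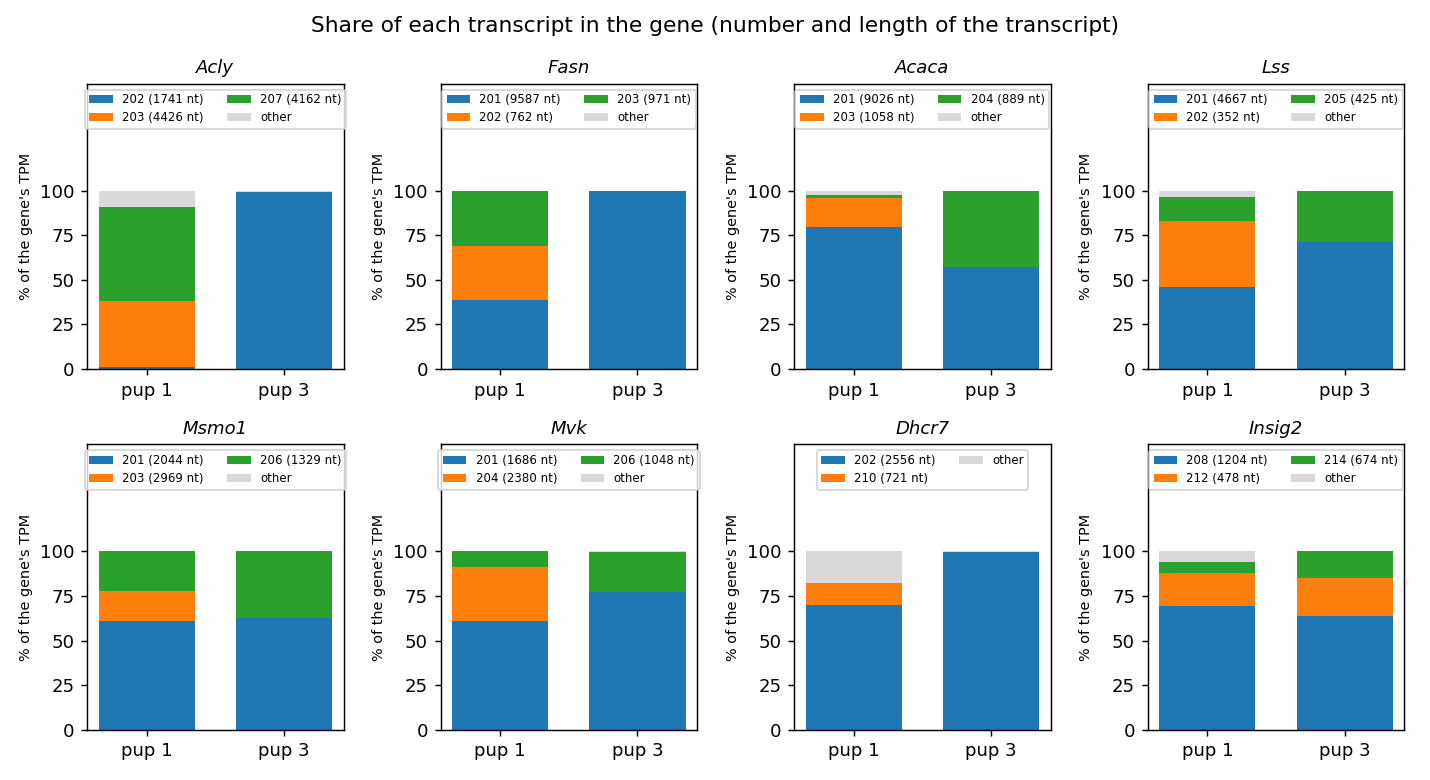
Share of each gene's TPM (vertical axis, %) held by its transcripts in pup 1 and pup 3, for 8 members with more than 1 transcript; colours are transcripts with their lengths, and grey is all others. Acly changes its leading transcript between the pups, and Fasn-202, Fasn-203, Lss-202 and Mvk-204 are drawn in pup 1 only.

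Several members come in families whose sequences are alike, which bears on how reads could be assigned. Scd1 and Scd2 were the closest: 965 of 1068 aligned coding bases (90.4%) were identical, and their coding sequences share 145 stretches of 50 bases. The other pairs, Insig1 with Insig2 (70.1%), Srebf1 with Srebf2 (63.9%), Fads1 with Fads2 (67.8%) and the Elovl genes (57.3% to 66.2%), share none of that length in their coding sequences. The mean level of Scd2 was 16.4 times that of Scd1 (79.7 and 4.85 TPM). The stretches below come from the coding sequences of transcripts Scd1-201 and Scd2-201 (GENCODE M21, GRCm38, chromosome 19) and show where reads can and cannot tell these genes apart. The shared stretch covers coding bases 523 to 622 of Scd1 and 532 to 631 of Scd2 and has 0 differences, and the divergent one covers bases 75 to 174 and 84 to 183 and has 31 differences, in capitals.
Scd1 and Scd2, shared: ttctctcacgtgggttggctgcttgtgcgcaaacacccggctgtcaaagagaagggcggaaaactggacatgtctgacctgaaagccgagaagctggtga
Scd1, divergent: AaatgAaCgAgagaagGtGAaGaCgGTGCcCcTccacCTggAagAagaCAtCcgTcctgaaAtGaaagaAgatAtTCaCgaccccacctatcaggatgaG
Scd2, divergent: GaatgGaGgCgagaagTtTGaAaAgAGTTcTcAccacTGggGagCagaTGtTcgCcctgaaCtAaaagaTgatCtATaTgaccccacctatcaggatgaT

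In pup 1, Scd1 had 1220 expected reads and Scd2 17455, and in pup 3 Scd1 had 0 and Scd2 4542. Scd3, a further copy named after its values were seen, was at 7.74 TPM in pup 1 and 0 in pup 3. Reads of the shared stretch match either gene. Stretches shared with any other gene made up 4.56% of the 50-base stretches of Scd1 and 3.97% of those of Scd2, and the deposited bounds for Scd1 in pup 1 were 8.98 to 10.1 TPM. Other members share sequence with pseudogenes or overlapping genes: 39.1% of the 50-base stretches of Acat2 also occur in Acat3 or Tcp1, 30.4% of those of Acaca in Gm5182 and others, 26.5% of those of Fdft1 in Ctsb or Gm6781, 26.2% of those of Fdps chiefly in Gm43738, and 25.3% of those of Idi1 chiefly in Gm13502. Acat3 itself was at 0.58 and 0.15 TPM. For Elovl2, Fads1, Mvd, Pmvk, Nsdhl, Acly and Fasn the share was 0.

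Other genes around the pathway were listed as 68 symbols; the 2 libraries shared 40 of them, pup 1 had 22 more, pup 3 had 2 more, and 4 reached the level in neither. Over all 21461 coding genes the shares were 24.7% in both, 17.4% in pup 1 only and 4.22% in pup 3 only. Those genes include 11508 that reached the level in neither library. Among the remaining 9953, both libraries shared 53.3%, and 37.6% were in pup 1 only. The proteases that release SREBPs were unlike each other: Mbtps1 had 82.3 TPM in pup 1 and 0 in pup 3, and Mbtps2 had 22.1 TPM and 42.3 TPM. Of 9 genes that use isoprenoids, for protein prenylation, dolichol or ubiquinone, the libraries shared 2, and the other 7 were found only in pup 1; pup 1 alone had 37.6% of the 9953 coding genes that reached the level in any library. Fnta, a farnesyltransferase subunit, had 11.3 TPM and 90.5 TPM, and its partner Fntb had 47.4 TPM and 0. Dhdds, for dolichol, had 17.9 TPM and 42.0 TPM, and Ggps1, for geranylgeranyl pyrophosphate, 44.7 TPM and 0.04 TPM.

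Of 14 genes for sterol carriage, uptake, efflux and turnover, 9 were found in both pups. The share found in both was 53.3% over the 9953 coding genes found in either pup. Apoe, the main lipid carrier of brain, was nearly equal, with 1172 TPM and 1183 TPM. Stard3 had 16.8 TPM and 143 TPM, and Npc2 had 92.2 TPM and 52.5 TPM. The widest gaps were in Scarb1, a lipoprotein receptor, with 0.12 TPM and 60.9 TPM, and Vldlr, with 35.1 TPM and 0. Of 8 genes that supply acetyl-CoA and NADPH, 5 were found in both: Idh1 had 417 TPM and 378 TPM, Cs 385 TPM and 189 TPM, and Taldo1 127 TPM and 217 TPM. Me1, the malic enzyme, had 25.6 TPM and 0.05 TPM.

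The remaining enzymes of chain elongation and desaturation, 11 genes, gave 7 found in both pups, beside 53.3% of the coding genes found in either pup. Tecr, which completes each round of elongation, had 1360 TPM in pup 1 and 450 TPM in pup 3, above the elongases named here in both. Hsd17b12, which acts ahead of it, had 158 TPM and 181 TPM, and Hacd3 had 67.0 TPM and 148 TPM. Elovl4 had 128 TPM and 48.7 TPM, above Elovl5 in pup 1 and below it in pup 3.

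The tissue label was checked against markers, beside a share of 53.3% found in both among the coding genes found in either pup. All 8 neuronal markers were found in both pups, with a summed level of 11584 TPM in pup 1 and 6092 TPM in pup 3. Tubb3 led this sum, with 6275 TPM and 1872 TPM, and 6 of the 8 were higher in pup 1 and 2 in pup 3. All 8 markers of astrocytes and radial glia were also found in both, with 2508 TPM and 3072 TPM. Fabp7 led that sum, with 1337 TPM and 2290 TPM, and 4 of the 8 were higher in each pup. Of 7 oligodendrocyte markers 2 were found in both (128 and 29.4 TPM summed), of 7 microglial markers 1 (269 and 114 TPM), of 7 endothelial and mural markers 4 (88.1 and 309 TPM), of 6 meningeal markers 4 (325 and 149 TPM) and of 6 choroid plexus markers 2 (1865 and 2067 TPM, led by Ttr). The 5 erythroid markers were found in both (1750 and 3276 TPM). Of 8 liver and adipocyte markers, which could bring lipid synthesis genes from elsewhere, 7 had 0 reads in both pups and Apoa1 had 7.05 TPM in pup 1. Outside that list, Apoa2 had 17.6 TPM in pup 1 and 46.8 TPM in pup 3, while Apoa4, Ahsg and Ambp had 0 TPM in both. Among defining markers, Mag, Mbp and Olig1 of oligodendrocytes and Csf1r, C1qa, Aif1 and Tyrobp of microglia had 0 reads in pup 3. Olig2 (0.03 TPM in pup 1, 12 TPM in pup 3) and C1qc (0 and 49.1 TPM) went the other way, and Pdgfra was found in both (18.0 and 14.8 TPM). These sums differed between the pups alongside the synthesis genes, and their part in the differences was not tested.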

How the data were processed

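RNA of 2 newborn forebrains, 1 library each, formed 1 group. Per the labels, RNA was extracted with the Ambion mirVana method and libraries were made by Smart-seq with spike-in RNA. The deposited gene and transcript tables hold expected counts (estimated reads per gene), TPM, FPKM and posterior mean TPM, per the file headers. They also hold deposited credibility bounds, a signal on the TPM scale. Text deposited with the tables names assembly mm10 and annotation M4. For aligner, counter and strand setting nothing is given in the sources used here.

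The design implies no contrast, so levels and ratios were described with no test. Ratios were taken on log2(TPM + 1), a gene was found at TPM of 1 or more, and a call was 2-fold. A fold against 0 reads used a floor of 3 reads in that library on the CPM scale; such limits cover counting error only, and amplified reads lack molecular identifiers and can be copies of 1 molecule. Symbols and positions came from GENCODE M21 on GRCm38, matched for 42462 of 43346 genes (98.0%). Promoter windows came from RefSeq. Paralogs were compared by coding bases, in place of proteins. Correlations used every gene in the set named. Alternatives were FPKM, posterior mean TPM, TPM over nuclear genes, CPM with TMM factors (0.919 and 1.09, edgeR 4.0.16) or DESeq2 1.42.0 size factors (expected counts rounded to whole numbers), pseudocounts of 0.1 and 10, detection at TPM of 0.1 or 5, filters at a mean TPM of 1 or 10 reads, thinning, and each pup alone. Python 3.11.15, pandas 2.3.3, numpy 2.4.6, Biopython 1.88, matplotlib 3.10.9 and R 4.3.3 were used, and steps were tested on simulated data.

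All members are named. Of each other pathway list, the 3 highest genes and the 2 largest ratios at a mean of 10 TPM or more are named. Ctsb, Vps51, Acat3, Scd3, Apoa1, Apoa2, Apoa4, Ahsg and Ambp were chosen after their values were seen. Transcripts are named at 10% of a gene of 20 TPM or more. A marker of the oligodendrocyte list is not reported here. The members and lists were chosen with earlier results of these data known.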

Additional observations from a re-analysis of the deposited data

How the results depend on the processing

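The counts of members found in both pups (25 or 26) and in pup 1 alone, and the counts 2-fold higher in pup 1 stayed within 1.5 times under every alternative run. The median log2 ratio over all 34 members kept its sign but moved from -0.35 to -0.09 with FPKM, -0.13 with TMM factors and -0.16 with DESeq2 size factors. The median level of 59.7 TPM became 41.6 as FPKM, 114 as CPM with TMM factors and 114 as CPM with DESeq2 size factors, which are other units; leaving out each pup in turn gave 49.2 to 73.3 TPM. The count found in pup 3 alone, which is Scap, was 0 with CPM under either set of factors, at a detection limit of 0.1 TPM, and at 10 reads, a limit chosen after seeing the data. With either filter on low genes 0 members were found in neither pup, since the filters remove Ebp and Elovl1. With a pseudocount of 10, 1 member was 2-fold higher in pup 3 in place of 4, as Acaca (log2 ratio 0.88), Insig2 (0.97) and Scap (0.55) dropped below 2-fold, and Scd1 (-0.98) did so on the other side. Among single genes, CPM with TMM factors put Acly (log2 ratio -1.72) and Hsd17b7 (1.51) past 2-fold and took Acaca (0.85) and Insig2 (0.96) below it, and Fasn (0.87) and Hsd17b7 changed sign; DESeq2 size factors moved the same genes. FPKM took Fdps (-0.85), Msmo1 (-0.85) and Mvd (-0.91) below 2-fold and put Fads2 (1.08) past it. With FPKM, Sc5d (0.12) and Hmgcs1 (4.3e-05, all but equal in the pups) changed sign. No paired analysis was possible because the series has 1 group only. Depth limits genes with 0 reads to less than 0.0730 CPM in pup 1 and 0.1004 CPM in pup 3, by counting error; losses during amplification of 13 pg of RNA are not covered.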

Other observations

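Genes that bind and activate fatty acids had a higher summed level than the genes that make them, but a lower median, 35.4 TPM against 52.5 TPM. Of 12 such genes, the libraries shared 9 and the other 3 were found only in pup 1. Over the 9953 coding genes found in either pup, these shares were 53.3% and 37.6%. The summed level of the 12 was 3770 TPM in pup 1 and 6167 TPM in pup 3, against 603 TPM and 449 TPM for the 11 fatty acid enzymes. Fabp7, the fatty acid binding protein of radial glia, had 1337 TPM in pup 1 and 2290 TPM in pup 3. Dbi, the acyl-CoA binding protein, had 1009 TPM and 1734 TPM, and Fabp5 had 734 TPM and 1643 TPM. These 3 carried most of the sum and had the higher level in pup 3, while the 12 genes divided into 6 higher in each pup. At a mean of 10 TPM or more, the widest gaps were in Acsl6, an acyl-CoA synthetase of neurons, with 77.0 TPM and 0, and Acbd3, with 13.6 TPM and 51.2 TPM.

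Of 12 genes listed for fatty acid oxidation, the libraries shared 7, pup 1 had 4 more and pup 3 had 1 more. Over the 9953 coding genes found in either pup, 53.3% were shared and 37.6% were in pup 1 alone. Etfb and Etfa, the subunits of the electron transfer flavoprotein, were higher in pup 3, with 101 TPM in pup 1 and 302 TPM in pup 3 for Etfb and 80.2 TPM and 223 TPM for Etfa. Acaa2, the last enzyme of the cycle, had 114 TPM and 70.8 TPM. Acadm, the medium-chain dehydrogenase, had 0.19 TPM and 106 TPM, and Cpt1c, the brain form of carnitine palmitoyltransferase, had 76.5 TPM and 1.12 TPM. No test between the pups is possible for these lists either.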
